A study of Mus musculus with 6 samples.

Results

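The genes described here are the 42 members of a list covering mitochondrial and peroxisomal fatty acid oxidation, ketone body synthesis and the regulators of these pathways, chosen by gene symbol from the 17460 symbols in a table of liver RNA sequencing. All 42 were in the table and all 42 passed the filter on low values, along with 17297 genes in all. The table holds polyA-selected mRNA from 6 liver samples of C57BL/6 mice aged 9 months, 3 control and 3 Blnc1 LKO. All mice had been fed a NASH diet (D09100301) for 24 weeks, a diet rich in fructose, trans fat and cholesterol that gives steatosis, inflammation and fibrosis, so no group without the diet enters any comparison. In Blnc1 LKO mice the long noncoding RNA Blnc1 was deleted in the liver by giving Cas9 transgenic mice an adenovirus that expresses a pair of sgRNAs, and in the study's high-fat diet experiment the control mice received a GFP adenovirus. The vector given to the controls on the NASH diet, and the sex of the mice, are not given in the sources used here. The deletion is partial, since it depends on which cells the adenovirus enters, and whole liver RNA also carries RNA from cells it does not enter. The table lists no gene under the name Blnc1, so the loss of Blnc1 RNA was not measured here.

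Fatty acids are burned in hepatocytes by beta-oxidation, which removes acetyl-CoA units in repeated rounds. Mitochondria take up long chains through the carnitine shuttle and turn much of the acetyl-CoA into ketone bodies during fasting, whereas peroxisomes shorten very long and branched chains. The nuclear receptor PPAR-alpha, encoded by Ppara, binds DNA as a partner of RXR and turns on many of these genes when fatty acids are abundant.

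PPAR-alpha and RXR bind a direct repeat, 2 copies of AGGTCA in the same direction with 1 base between them. A promoter window in RefSeq, from 250 bases before to 50 after a gene start (build GRCm38.p6), was found for 34 of the 42 genes, in 39 windows. With at most 2 of the 12 fixed letters changed, the repeat was found on either strand in 5 of the 39 windows (12.82%), against 3.86% of the 32851 windows of all genes, and none of the 39 held it without a change. The matches are shown because the list includes the gene of PPAR-alpha, which reads this repeat. Whether PPAR-alpha regulates the genes with a match was not tested. The 13-base match stands in capitals, read from the strand that carries it. A match is a description of the letters, and binding was not measured here.
Creb3l3, chr10:81092780-81092808, minus strand: ctgtaagtAGGGGAGAGGTCAcacagacc
Slc25a20, chr9:108662134-108662162, plus strand: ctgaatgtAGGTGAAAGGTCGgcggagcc
Echs1, chr7:140116484-140116512, minus strand: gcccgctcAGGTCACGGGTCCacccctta
Etfa, chr9:55512300-55512328, plus strand: ttgggagtAGGGCAAAGGTAAgggtgtgc
Acox2, chr14:8258810-8258838, minus strand: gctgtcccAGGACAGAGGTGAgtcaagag
The Etfa match lay on the strand opposite to the gene, and the other 4 on the strand of their gene. Relative to the gene start of the RefSeq window, the matches of Slc25a20 and Acox2 began 6 and 9 bases after it. The other 3 lay before it. Gene starts can differ between annotations: in GENCODE M21, Creb3l3 spans chr10:81084324-81098874 on the minus strand, so its match lies inside that gene model. Windows of Angptl4, Vnn1, Crat, Hsd17b4, Acat1, Decr1, Acaa2 and Abcd2 were not analysed here.

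The values are gene-level read counts scaled by a size factor for each liver, called normalised read counts here. To compare levels between genes they were divided by the length of the main coding transcript in kilobases (GENCODE M21). On this scale 37 of the 42 genes lay above the 90th percentile of the 15353 genes with a length. Acaa1b, a peroxisomal thiolase, was the most abundant, with a level of 85324.5 ± 6199.5 per kb in control livers (SD, n = 3). Acaa2, a thiolase of the mitochondrial oxidation spiral, followed with a level of 44308 ± 1480 per kb (SD, n = 3). Next came Ech1, Hadh and Etfa, with levels from 22838.6 to 24442.2 per kb, which overlapped between neighbours. From Acadvl down to Hadha, each of the genes overlapped its neighbour in the order among the 3 control livers. Ppargc1a, a coactivator of PPAR-alpha, was the lowest with a level of 143.1 ± 15 per kb (SD, n = 3), at the 38.1 percentile of all genes. Pdk4, Abcd2 and Crat stood next above it, with levels of 500.2, 700.6 and 2114.0 per kb, and none of these overlapped its neighbour in the order.

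**Figure D1:**
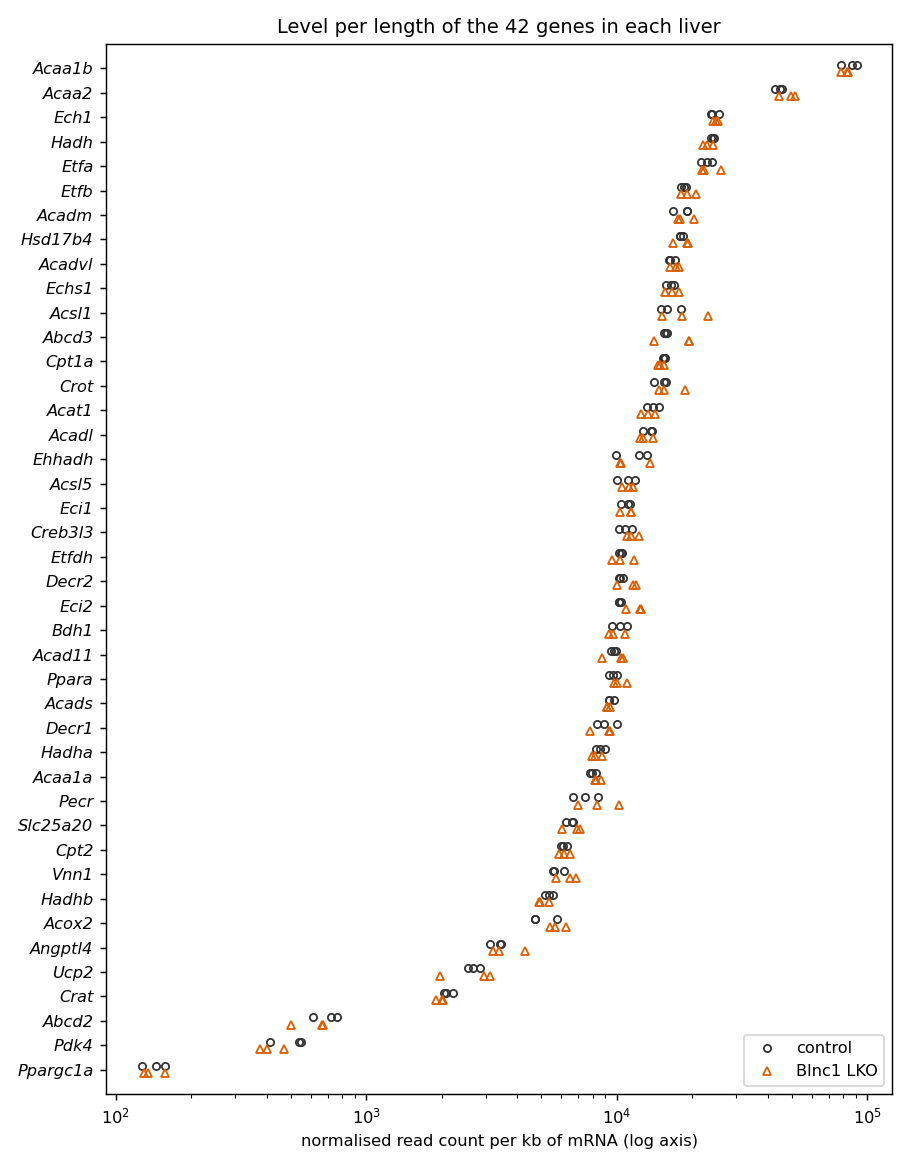
Normalised read count per kb of mRNA (log axis) for each of the 42 genes in the 3 control livers (circles) and the 3 Blnc1 LKO livers (triangles), ordered by the control mean. Acaa1b and Acaa2 stand at the top and Ppargc1a at the bottom, and within a gene the 2 groups lie close together.

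The comparison asks whether livers of Blnc1 LKO mice express the fatty acid oxidation program at another level than control livers on the same diet. None of the 42 genes passed an adjusted p under 0.05 in limma, where 0.00578% of all genes tested (1 of 17297) did. None passed in edgeR or in DESeq2 on the recovered reads either, where DESeq2 called 0.486% of all genes (84). At an unadjusted p under 0.05 there was 1 gene of the 42 in limma, Eci2, against 5.68% of all genes. The 3 Blnc1 LKO livers lay all above the 3 control livers for 1 gene (Eci2, against 5.35% of all genes) and all below them for 1 gene (Crat, against 5.28%). The mean was higher in Blnc1 LKO livers for 26 genes and lower for 16, and 49.6% of all genes had a higher mean. The median log2 fold change over the 42 genes was 0.02, against -0.001 over all genes, with a range from -0.26 (Pdk4) to 0.21 (Eci2).

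The data bound the size of any change more closely for these genes than for the typical gene in the table. The comparison was not matched for level, and 37 of the 42 genes lay above the 90th percentile of level. The standard error of the log2 fold change had a median of 0.076 over the 42 genes and 0.105 over all genes tested. The 95% interval of the fold change lay inside 1.2-fold in either direction for 26 of the 42 genes, against 38.1% of all genes. For all 42 it lay inside 1.5-fold, against 68.1% of all genes, and for none inside 1.1-fold. The 16 genes whose interval reached past 1.2-fold were Ppargc1a, Acsl1, Acaa2, 9 of the 11 peroxisomal genes (all but Hsd17b4 and Acaa1a), and the PPAR-alpha targets Pdk4, Angptl4, Ucp2 and Vnn1. A p that misses the threshold does not show equal levels, and with 3 livers per group a change of any size inside a gene's interval remains possible.

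**Figure D2:**
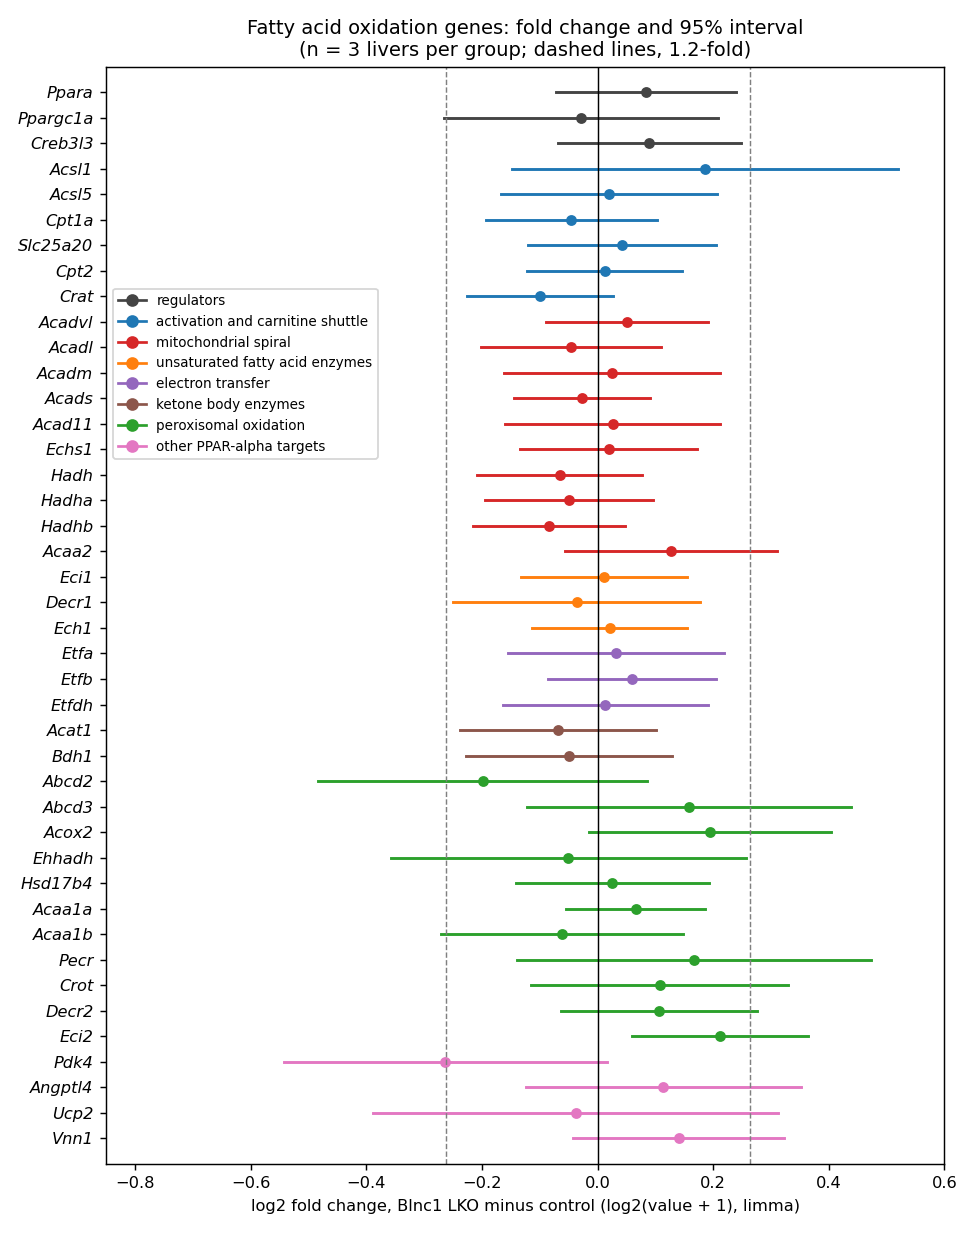
Log2 fold change of each of the 42 genes, Blnc1 LKO minus control on the log2(value + 1) scale (x axis), with points for the limma estimate, bars for its 95% interval (n = 3 livers per group) and colours for the role of the gene. The interval of Eci2 alone does not reach 0, and 26 of the 42 intervals stay between the dashed lines at 1.2-fold.

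Among the regulators, Ppara encodes the receptor itself and lies at chr15:85734983-85802819 on the plus strand (GRCm38). Its normalised read counts were 32795, 34226 and 31612 in controls and 37344, 33093 and 34174 in Blnc1 LKO livers. Replicate 1 of the Blnc1 LKO livers was above every control and the other 2 lay within the control range, and the log2 fold change was 0.08, with a standard error of 0.068 and an adjusted p of 0.971 in limma. Creb3l3 encodes a hepatocyte transcription factor of the endoplasmic reticulum membrane that acts with PPAR-alpha in fasting. Its counts were 26356, 24669 and 23405 in controls and 26092, 25091 and 28014 in Blnc1 LKO livers. The groups overlapped, and the log2 difference was 0.09 with a standard error of 0.069 and an adjusted p of 0.971 in limma. Ppargc1a had counts of 937.9, 822.5 and 1015 in controls and 1014, 867.2 and 838.9 in Blnc1 LKO livers. These ranges nearly coincide, and its log2 fold change of -0.029 had a standard error of 0.10.

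The 6 genes of fatty acid activation and the carnitine shuttle had a median log2 fold change of 0.016, with 4 means higher. Cpt1a encodes the carnitine palmitoyltransferase that sets the rate of entry into mitochondria (chr19:3322334-3385733, plus strand). Its counts were 67181, 66450 and 66236 in controls and 66436, 62975 and 64333 in Blnc1 LKO livers. The control livers differed by a coefficient of variation of 0.744%, the lowest of the 42 genes, and 1 of the Blnc1 LKO livers fell among them. The ratio of the means was 0.969, with a 95% interval of the fold from 0.875 to 1.07. Cpt2, which releases the acyl group inside the mitochondrion, and Slc25a20, the carrier between both transferases, had ratios of 1.01 and 1.03.

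Crat, the short-chain carnitine acetyltransferase, was the gene whose Blnc1 LKO livers all lay below the controls (chr2:30400471-30415813, minus strand). Its counts were 9341, 8821 and 8627 in controls and 8482, 8523 and 7995 in Blnc1 LKO livers. The gap between the lowest control and the highest Blnc1 LKO liver was small, and the log2 fold change of -0.10 (standard error 0.055) did not pass the test (adjusted p = 0.931, limma). Of its exonic bases, 8.7% are shared with genes on the other strand, Dolpp1 among them. Acsl1, the main long-chain acyl-CoA synthetase of liver, had 89793 in replicate 1 of the Blnc1 LKO livers, against 58617 to 70506 in control livers and 58936 and 71100 in the other 2. Its ratio of 1.15 therefore came with an interval from 0.902 to 1.43, while Acsl5, a second synthetase, had a ratio of 1.01.

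**Figure D3:**
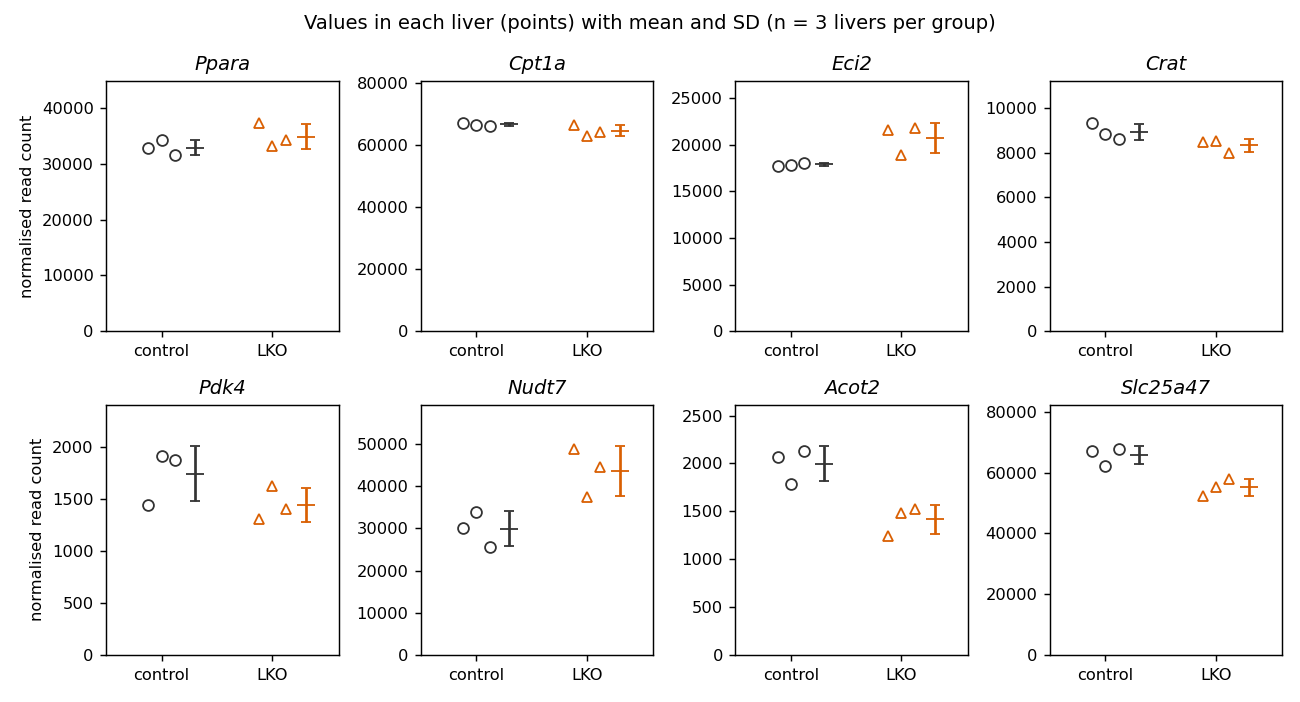
Normalised read count (y axis, from 0) of 8 genes in each control liver (circles) and each Blnc1 LKO liver (triangles), with the mean and SD beside them (n = 3 livers per group). The groups overlap for Ppara, Cpt1a and Pdk4 and are separate for Eci2, Crat, Nudt7, Acot2 and Slc25a47.

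The 10 enzymes of the mitochondrial beta-oxidation spiral were divided evenly, with 5 means higher and 5 lower and a median log2 fold change of -0.004. The acyl-CoA dehydrogenases open each round on chains of different length. Acadvl for very long chains had a ratio of 1.04, Acadl for long chains 0.969, Acadm for medium chains 1.02, Acads for short chains 0.981 and Acad11, a relative that acts on long and very long chains, 1.02. The hydratase Echs1 and the hydroxyacyl-CoA dehydrogenase Hadh had ratios of 1.01 and 0.956. Hadha and Hadhb encode the subunits of the trifunctional protein, which carries out the last steps on long chains, and had ratios of 0.967 and 0.943. The range of log2 fold changes ran from -0.085 for Hadhb to 0.13 for the thiolase Acaa2, and the smallest adjusted p in the group was 0.952 (limma). Acadvl shares 42.9% of its exonic bases with Dvl2 on the other strand, the largest share among the 42 genes, and the library kit does not mark strand.

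Unsaturated chains need extra isomerases and a reductase before they can enter the spiral. Of these, Eci1 and Ech1 had ratios of 1.01 and 1.01 and Decr1, the dienoyl-CoA reductase of mitochondria, had 0.976. Etfa, Etfb and Etfdh pass the electrons of the dehydrogenases to the respiratory chain. All 3 had a higher mean, with log2 fold changes from 0.013 to 0.060, and for each of them replicate 1 of the Blnc1 LKO livers was the highest of the 6 livers. Replicate 2 was the lowest for Etfb and Etfdh.

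Of the ketone body enzymes, Acat1 encodes the mitochondrial acetoacetyl-CoA thiolase. Its counts were 47484, 44852 and 50249 in controls and 48136, 45233 and 42646 in Blnc1 LKO livers. Bdh1 converts acetoacetate to beta-hydroxybutyrate, the main ketone body in blood. Its counts were 34158, 29821 and 32014 in controls and 33538, 30180 and 29060 in Blnc1 LKO livers. For each gene the lowest liver was Blnc1 LKO replicate 3 and the other 2 lay within the control range. Their log2 fold changes were -0.068 (standard error 0.075) and -0.050 (standard error 0.078), with adjusted p of 0.973 and 0.980 in limma.

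The 11 peroxisomal genes had the highest median log2 fold change of the 8 role groups, 0.11, with 8 means higher and 3 lower. The group was described and not tested as a group. Eci2 encodes an enoyl-CoA isomerase that works on unsaturated chains in peroxisomes and mitochondria (chr13:34977748-35027096, minus strand). Its counts were 17760, 17860 and 18088 in controls and 21616, 18930 and 21784 in Blnc1 LKO livers, so the controls lay close together and every Blnc1 LKO liver was above them. The mean went from 17903 ± 168 to 20777 ± 1602 (SD, n = 3 livers each), a ratio of 1.16. The log2 fold change of 0.21 (standard error 0.067) had an unadjusted p of 0.012 and failed the test once adjusted over all genes, with an adjusted p of 0.784 in limma and 0.336 in DESeq2.

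Acox2 encodes the acyl-CoA oxidase for branched chains and bile acid precursors. Its counts were 13739, 13632 and 16738 in controls and 18136, 15701 and 16497 in Blnc1 LKO livers. One control liver lay within the Blnc1 LKO range, and the log2 fold change of 0.19 (standard error 0.092) had an adjusted p of 0.891 (limma). Abcd3, a transporter of acyl-CoA into peroxisomes, had 67554 and 67795 in replicates 1 and 3 of the Blnc1 LKO livers and 48997 in replicate 2, against 53579 to 55052 in control livers. Replicate 2 thus stood below every control and the other 2 above every control. The related transporter Abcd2 had the lowest ratio of the group, 0.875, and its lowest liver was Blnc1 LKO replicate 3 with a count of 2777. Among the enzymes, Pecr, the trans-2-enoyl-CoA reductase, had a ratio of 1.13, Crot, the carnitine octanoyltransferase, had 1.08, and the reductase Decr2 also had 1.08. The bifunctional enzymes Ehhadh and Hsd17b4, which hydrate and dehydrogenate the chain, had ratios of 0.967 and 1.02.

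Acaa1a and Acaa1b encode near-identical peroxisomal thiolases, and their longest coding mRNAs were identical at 93.3% of 1638 aligned bases, with a longest identical run of 327 bases. Reads in such runs cannot be assigned to either gene, so the split between them is uncertain. Acaa1a had counts of 14529, 13994 and 13791 in controls and 14565, 14434 and 15293 in Blnc1 LKO livers. Acaa1b had 146761, 132573 and 153006 in controls and 140257, 132580 and 140821 in Blnc1 LKO livers. Both pairs of groups overlapped, and the sum of the pair had a log2 ratio of -0.05.

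Of the 4 further PPAR-alpha targets, Pdk4 encodes a kinase that shuts pyruvate dehydrogenase and so spares glucose when fat is burned (chr6:5483351-5496309, minus strand). Its counts were 1440, 1909 and 1879 in controls and 1309, 1628 and 1401 in Blnc1 LKO livers. One control liver fell among the Blnc1 LKO livers, and the log2 fold change of -0.26 (standard error 0.12) had an unadjusted p of 0.062 and an adjusted p of 0.891 (limma). Angptl4, a secreted inhibitor of lipoprotein lipase, had 10298, 11355 and 11321 in controls and 11160, 10607 and 14161 in Blnc1 LKO livers. Only replicate 3 of the Blnc1 LKO livers was above the control range. Ucp2, a mitochondrial carrier, had counts of 11348, 10625 and 10192 in controls and 7819, 11726 and 12384 in Blnc1 LKO livers. Its Blnc1 LKO livers lay on both sides of the controls, with a coefficient of variation of 23.2%, the largest of the 42 genes in either group. Vnn1, a pantetheinase, had 14882, 13492 and 13384 in controls and 16616, 13751 and 15735 in Blnc1 LKO livers. Replicate 2 again lay within the control range and the other 2 above it, and the difference was 0.14 on the log2 scale (standard error 0.080).

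Over the 42 genes the Blnc1 LKO livers spread more widely than the control livers did, and so they did over all genes tested. The coefficient of variation had a median of 4.26% over the 42 genes in control livers and 7.48% in Blnc1 LKO livers. Over all genes tested the medians were 6.63% and 10.2%. It was larger in Blnc1 LKO livers for 33 of the 42 (78.6%), against 66.8% of all genes tested. Replicate 1 of the Blnc1 LKO livers was the highest of the 6 livers for 18 genes and above every control for 24, against 25.5% and 33.6% of all genes. Replicate 2 was the highest for 0 genes and the lowest for 15, against 17.7% and 18.6% of all genes, and it was below every control for 18 genes, against 27.9% of all genes. Replicate 3 was above every control for 16 genes and below every control for 10, against 29.4% and 27.8% of all genes.

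Relative to the control mean, the median log2 level of the 42 genes was 0.085, -0.068 and 0.039 in replicates 1 to 3 of the Blnc1 LKO livers and 0.027, -0.029 and 0.010 in the control livers. A list of 9 genes of general mitochondrial function (Cs, Sdha, Cox4i1 and others) had medians of 0.109, -0.083 and 0.016 in the same Blnc1 LKO livers and 0.035, -0.022 and -0.007 in the controls. The 11 peroxisomal genes had 0.209, -0.049 and 0.117 in the Blnc1 LKO livers. The part that mitochondrial content has in these values was not tested.

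**Figure D4:**
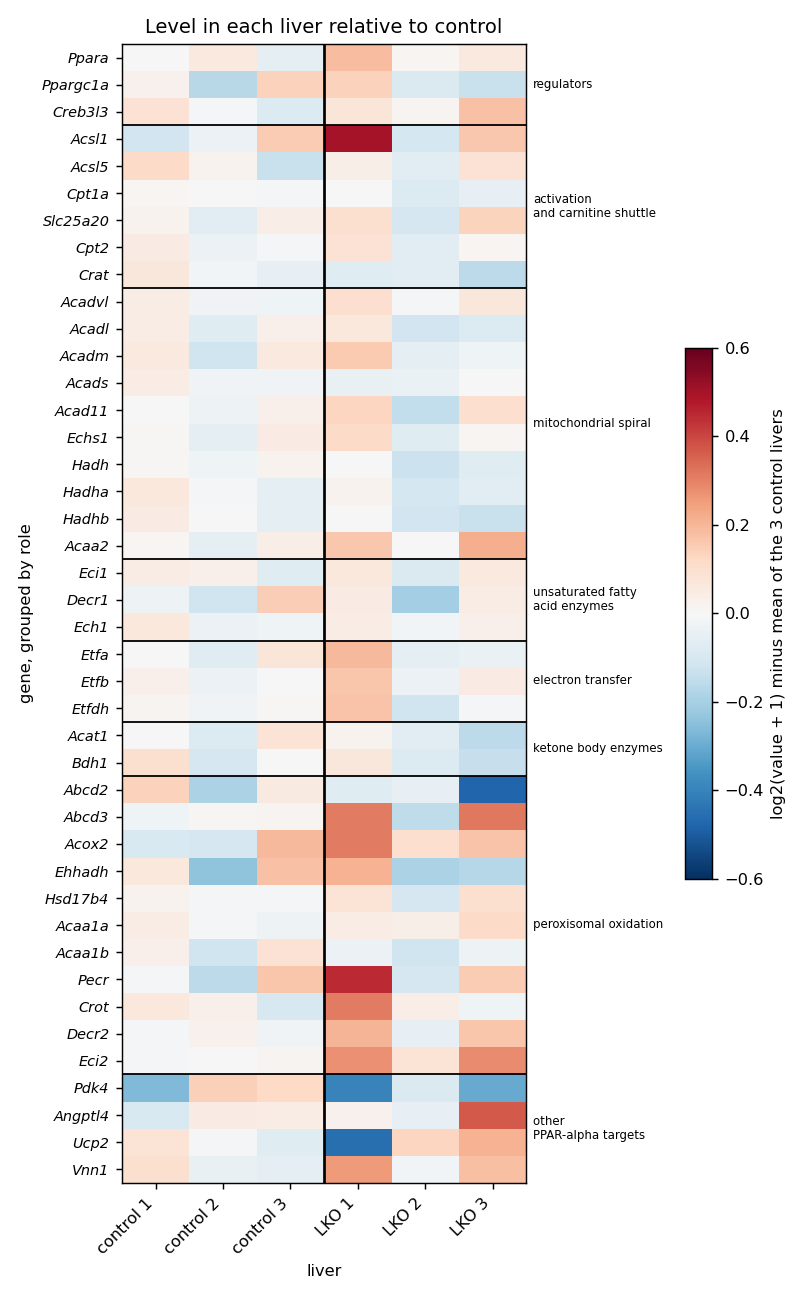
Level of each of the 42 genes (y axis, grouped by role) in each of the 6 livers (x axis) as the log2(value + 1) minus the mean of the 3 control livers, where red is higher and blue lower. Blnc1 LKO replicate 1 is above every control for 24 genes and replicate 2 is below every control for 18.

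With Blnc1 LKO replicate 2 left out, 9 of the 42 genes had an unadjusted p under 0.05 in limma, against 10.7% of all genes in that fit, and none passed the adjustment. Of these, 8 had a higher mean in Blnc1 LKO livers (Eci2, Pecr, Acox2, Decr2, Abcd3, Vnn1, Acsl1 and Acaa2) and Pdk4 had a lower one. Replicate 2 had the lowest count of the Blnc1 LKO livers for each of the 8 and the highest for Pdk4. Leaving it out therefore widens these differences by construction, and the count is not separate evidence of a change. Leaving out any other single liver gave from 1 to 3 genes, against 3.84% to 5.68% of all genes in those fits, and Eci2 was among them each time.

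A list of 63 further genes of the pathway, also chosen with earlier results known, held partners of the receptor, other oxidation and import enzymes, genes of ketone body use and PPAR-alpha targets outside oxidation. All 63 were tested, 38 had a higher mean on the log2 scale and 25 a lower one, and the median log2 fold change was 0.024. The 19 PPAR-alpha targets outside oxidation had a median of -0.111 with 11 means lower, and the medians of the other 3 lists were 0.021 to 0.028. None passed limma's adjustment, and 6 were at an unadjusted p under 0.05, for each of which all 3 Blnc1 LKO livers lay on one side of the controls. Of all genes, 5.68% reached that p, and the livers lay all above the controls for 5.35% and all below for 5.28%. DESeq2 on the recovered reads called Nudt7 and Acot2, against 0.486% of all genes.

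Nudt7, a peroxisomal hydrolase that breaks down coenzyme A and its acyl esters, had counts of 30016, 33927 and 25673 in controls and 48930, 37380 and 44483 in Blnc1 LKO livers. The mean was 1.46 times higher, or 0.55 on the log2 scale (standard error 0.12), with an adjusted p of 0.548 in limma and 0.0050 in DESeq2. Acot2, a mitochondrial acyl-CoA thioesterase that releases free fatty acids from their esters, had counts of 2068, 1788 and 2130 in controls and 1242, 1479 and 1529 in Blnc1 LKO livers. Its ratio was 0.710, a log2 difference of -0.50 with standard error 0.098, with an adjusted p of 0.548 in limma and 0.0047 in DESeq2. The mRNA of Acot2 was identical to that of its cytosolic relative Acot1 at 82.1% of the aligned bases, with an identical run of 273 bases, so the split of reads between them is uncertain. For the sum of both the groups overlapped, with a log2 ratio of -0.158.

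Of the other 4, Slc25a47, a mitochondrial carrier of hepatocytes, had counts of 67016, 62343 and 67744 in controls and 52251, 55258 and 58029 in Blnc1 LKO livers. Its log2 fold change was -0.25 (standard error 0.073), with an adjusted p of 0.714 in limma and 0.0691 in DESeq2. Acsl3, an acyl-CoA synthetase of lipid droplets and the endoplasmic reticulum, had a ratio of 0.747. Sirt3, the main deacetylase of mitochondria, and Slc25a42, which carries coenzyme A into mitochondria, had ratios of 1.09 and 1.11. Of the typical PPAR-alpha targets, named after their values were seen, Cyp4a14 had counts of 10255, 4122 and 10576 in controls and 16618, 5852 and 9597 in Blnc1 LKO livers. The hepatokine Fgf21 had 837.2, 902.4 and 722.2 in controls and 586.7, 818.4 and 631.6 in Blnc1 LKO livers. Groups overlapped for both genes, whose log2 fold changes were 0.35 (standard error 0.43) and -0.28 (standard error 0.14).

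Sets of marker genes show what else differed between the libraries, whose depth was 65384969 to 89350181 reads. Hepatocyte markers were present at a summed count of 5671296 to 6213328 in control and 5513488 to 6628119 in Blnc1 LKO livers (7 of 8 listed markers in the table), so the label of the tissue holds. All 10 pericentral hepatocyte genes had a higher mean in Blnc1 LKO livers, with sums of 748311 to 794520 in control and 830844 to 1107786 in Blnc1 LKO livers, the lowest of the latter in replicate 2. Periportal genes had a higher mean for 2 of 10, with sums of 361720 to 465222 and 323532 to 416635. The 8 stellate cell markers had sums of 66926 to 80959 in control and 54007 to 66354 in Blnc1 LKO livers. Macrophage markers (10) had a ratio of summed counts of 1.07, endothelial (7) 0.949, cholangiocyte (6) 0.913, lymphocyte (7) 0.891, clock genes (10) 1.03 and genes of fasting and feeding (7) 0.895. Means were higher for 7 of 10 macrophage, 2 of 8 stellate cell and 2 of 7 endothelial markers. An unadjusted p under 0.05 (limma) was reached by 5 macrophage, 4 stellate cell, 3 endothelial and 4 pericentral genes, against 5.68% of all genes. The periportal, fasting, adipocyte and skeletal muscle lists had 1 such gene each. The hepatocyte, cholangiocyte, lymphocyte and clock lists had 0. Adipocyte markers were low, with sums of 571 to 1600 in control and 1438 to 1791 in Blnc1 LKO livers, and Adipoq, Plin1 and Retn were at 0 in some livers. Skeletal muscle markers summed to 42 to 59 and 63 to 79, and Myh4 was at 0 in some livers. No marker in the table was at 0 in all livers. In whole liver, fewer cells of a type and less RNA per cell cannot be told apart, and the part of these lists in the values of the 42 genes was not tested.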

How the data were processed

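RNA sequencing was performed on polyA-selected liver mRNA with an Illumina TruSeq v2 kit, which does not mark strand. Per the study's methods and the submitters' processing notes, reads were checked with FastQC, aligned to mm10 with STAR, counted per gene with HTSeq and tested with DESeq2. Versions, annotation, filters and strand settings are not given in the sources used here. The signal deposited by the authors is the HTSeq count of each gene after scaling with 1 size factor per liver. Columns named WT and KO with a number were matched to the control and LKO livers of that number.

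All values of every liver were whole multiples of that of 1 read (100%, tolerance 0.01 reads), so the reads were recovered. Depth was 65384969 to 89350181 reads per liver, and counting error is small beside the spread between livers: within groups, the chi-square of a pair of livers was 20.8 to 70 times its degrees of freedom. The groups were compared on log2(value + 1) by limma (version 3.58.1, R 4.3.3; lmFit, then eBayes using a mean trend). Genes entered when 3 or more livers had values of 1 or more (17297 genes), and p-values were adjusted over all of them by Benjamini-Hochberg, threshold 0.05. Folds on this scale understate changes of low genes. Counts of genes with a higher or lower mean use the sign of the log2 fold change. Intervals are 95% and per gene, and tests are two-sided. An exact permutation test of 3 against 3 livers cannot go below 0.1, so limma's p is given. No label says that replicates came from separate mice, so p-values measure the spread between these samples, which may be in part technical.

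The members, roles, the 63 further genes and the marker lists were chosen with earlier results of these data known. All members were named. Values per liver are given for the regulators, Cpt1a, the ketone body genes, the thiolase pair, the other PPAR-alpha targets and members at an unadjusted p under 0.05 or with separate groups, and of the further genes those at an unadjusted p under 0.05 were named. Values of Acsl1, Acox2, Abcd3 and Abcd2 outside this rule were chosen after they were seen. Alternatives were edgeR (4.0.16, quasi-likelihood) with TMM or library size, DESeq2 (1.42.0), voom, a pseudocount of 0.1, no filter, a minimum of 10 reads per liver, a block for the replicate number, each liver left out and a threshold of 0.1. The fits were tested on simulated data. Gene positions, lengths and mRNAs came from GENCODE M21 (GRCm38) and promoters from RefSeq. The protein comparison of Acaa1a and Acaa1b was not made here, and their mRNAs were aligned instead. Blnc1, Tf, Lep, Ckm and Myh1 were not analysed here.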

Additional observations from a re-analysis of the deposited data

How the results depend on the processing

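No member passed an adjusted p under 0.05 in any alternative (lowest adjusted p 0.1521, Eci2), and 0 passed at 0.1. Of 630 recomputed log2 fold changes of the 42 genes, none became a call, and 27 genes kept their sign in all 15 alternatives. Over all genes limma called 1, against 2 with edgeR and TMM, 84 with DESeq2, 2 without a filter, 2 at 0.1 and 0 to 13 with single livers left out. With the replicate block limma called 0 genes and DESeq2 64. Members at an unadjusted p under 0.05 were 1 in limma, 2 (Eci2 and Pdk4) in DESeq2, in limma with the replicate block and in DESeq2 with it, and 1 to 9 with single livers left out, the 9 without Blnc1 LKO replicate 2 and 3 without replicate 1. The median log2 fold change of the 42 genes was -0.016 to 0.065 with single livers left out, so its sign rests on single livers. Further pathway genes at an unadjusted p under 0.05 were 6 in limma, 7 in limma with the replicate block and 9 in edgeR with library size. With single livers left out there were 5 to 16 (16 without Blnc1 LKO replicate 2). The causes were not tested. Same-numbered livers did not deviate together (correlations -0.0584, -0.0191 and -0.107), so the numbers were taken not to pair the mice. Depth does not limit these genes as much as the 3 livers per group do.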
